A study of Mus musculus with 20 samples.

Results

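Extracellular proteases and their inhibitors were followed as 10 genes of the mouse BV-2 line: the matrix metalloproteinases Mmp9, Mmp12, Mmp13 and Mmp14, the tissue inhibitors Timp1 and Timp2, the membrane proteases Adam8 and Adam17, and the urokinase pair Plau and Plaur. They were chosen by name, and all 10 were found once among the 55487 genes of the count table. Of these, 9 had enough counts to be tested among 12799 genes, and Timp1 did not.

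BV-2 is an established microglial line made from the brains of young mice, and microglia are the resident macrophages of the brain. Young BV-2 microglia were of low passage, aged BV-2 microglia had been kept in culture for an extended time, and both were left untreated or given LPS (lipopolysaccharide, a bacterial cell wall component) at 100 ng/ml for 6 hours. Each of the 4 groups held 5 cultures, numbered 1 to 5, and the number is also the batch in the labels. All cultures belong to 1 line, immortalised with a retrovirus that carries oncogenes, so age here means time in culture of 1 line, and p-values measure the spread between its cultures.

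Libraries held 11371508 to 16829292 counts, with a median of 14370473, and group ranges overlapped. Of 12 microglial markers, 11 were tested, while Sall1 had at most 3 counts in every library and P2ry12 at most 3 in the aged LPS libraries. Tested but low were P2ry12, Cx3cr1 and Fcrls, with group means of at most 1.17, 1.05 and 1.29 CPM (counts relative to the TMM-scaled library size). Neuronal markers summed to at most 0.413 CPM and fibroblast markers to at most 0.129 CPM. Astrocyte markers summed to 49.0 to 89.2 CPM over 6 genes, and Gfap, Aqp4, Aldh1l1 and Gja1 among them had at most 3 counts in every library. Aged culture 3 stood apart from the other aged cultures for many members, as described with the values. For Plau, Mmp14 and Mmp12 a result is given without replicate 3 as well.

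Matrix metalloproteinases are made as inactive precursors and cut collagens, elastin and other matrix proteins once activated. TIMPs bind their active sites, and Timp2 also takes part with Mmp14 in activating another metalloproteinase at the cell surface. Urokinase, the Plau product, binds its receptor Plaur on the cell surface and turns plasminogen into plasmin, a broad protease that also activates metalloproteinases. ADAM proteases release the outer parts of membrane proteins, and ADAM17 is the enzyme that frees tumor necrosis factor. Microglia are known to use these enzymes when they migrate and when they respond to bacterial products. RNA was measured here, not protein or proteolytic activity.

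The promoter windows below are shown because they are those of members that hold TGANTCA, the letters of an AP-1 type site. All 3 genes were higher under LPS, as were 8 of the 9 tested members, so the rise does not set these 3 apart. Among windows of 250 bases before to 50 bases after RefSeq gene starts in GRCm38.p6, 8 of the 10 members had 9 windows. TGANTCA, searched on both strands, was in 3 of these 9 windows and in 7.81% of 32851 windows of all genes. The NF-kB consensus, searched on both strands, was in 1 of the 9 (Mmp12, more upstream start) and in 8.46% of all. The letters TATAAA, searched on the gene's strand, were in 2 of the 9 and in 8.32% of all. A match describes letters and not a bound site. Each line gives the 100 bases before a start, 5′ to 3′ on the + strand, with the TGANTCA match in capitals, at chr7:24462383-24462482 for Plaur, chr9:7272414-7272513 for Mmp13 and chr9:7347274-7347373 for Mmp12.
Plaur: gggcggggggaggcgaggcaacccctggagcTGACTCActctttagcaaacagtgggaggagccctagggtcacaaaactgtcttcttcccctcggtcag
Mmp13: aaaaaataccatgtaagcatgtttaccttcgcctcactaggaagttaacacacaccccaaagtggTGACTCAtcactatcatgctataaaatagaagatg
Mmp12: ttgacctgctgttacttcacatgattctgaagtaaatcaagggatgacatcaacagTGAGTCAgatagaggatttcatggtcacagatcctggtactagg

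The match began at position -69 from the start in Plaur, at -35 in Mmp13 and at -44 in Mmp12. The Plaur and Mmp13 windows lie directly before the genes (GRCm38 chr7:24462484-24475968 and chr9:7272514-7283331, both on the + strand). The Mmp12 window belongs to its more downstream start and lies in an intron of the transcripts that begin further upstream (gene at chr9:7344381-7369499, + strand). The other members lie at chr2:164940780-164955850 (Mmp9, +), chr14:54431612-54445364 (Mmp14, +), chrX:20870166-20874735 (Timp1, +), chr11:118301069-118355740 (Timp2, -), chr7:139978932-139992562 (Adam8, -), chr12:21323509-21373632 (Adam17, -) and chr14:20836660-20843385 (Plau, +).

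LPS against untreated BV-2 microglia was compared within each age. In young cultures all 9 tested members differed, 8 higher and Timp2 lower, where 64.6% of the 12799 genes were called, 31.2% higher and 33.5% lower. In aged cultures the same 9 differed in the same directions, where 54.4% of genes were called, 27.5% higher and 26.9% lower. Of these 9, Mmp9, Mmp12, Mmp13 and Mmp14 had fewer than 10 counts in some or all untreated libraries and could meet the count filter through their LPS libraries, so their calls under LPS were favoured by it. The other 5 (Timp2, Adam8, Adam17, Plau and Plaur) had at least 10 counts in every library, and their median absolute log2 fold change was 1.44 in young and 1.04 in aged cultures, against 0.35 and 0.26 over all tested genes. In such bulk libraries fewer cells that express a gene and less RNA per cell cannot be told apart. The untreated and LPS groups did not overlap for all 9 members in young cultures and for 7 in aged cultures, and 49.1% and 40.1% of all genes met that rule. Within batches, all 9 moved one way in 5 of 5 pairs of young and of aged cultures, as did 68.9% and 63.0% of all genes. With library sizes alone in place of TMM scaling (edgeR's trimmed mean of M values), the genes called higher made up 27.3% instead of 48.2% of calls in young cultures and 28.4% instead of 50.6% in aged cultures, while the members kept their directions and calls.

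**Figure D1:**
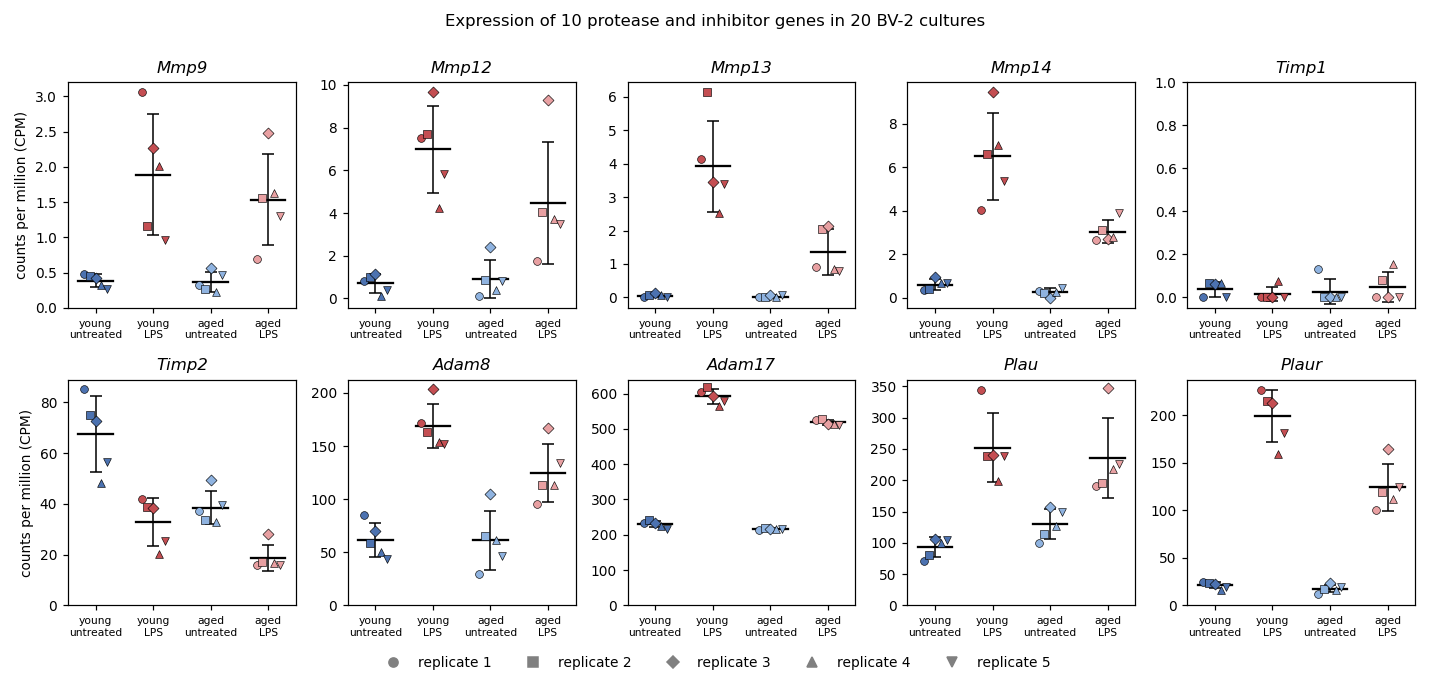
CPM (y axis, linear, own scale per gene) of the 10 genes in the 4 groups, each point being 1 culture with its replicate number as the marker, and lines and bars giving the mean ± SD of 5. LPS points lie above the untreated points for every tested gene except Timp2, with overlap for Mmp12 and Adam8 in aged cultures, and replicate 3 is at the top of the aged LPS points in 7 of the 9 tested genes.

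Among the secreted metalloproteinases, Mmp13 (collagenase 3, which cuts fibrillar collagens) moved from the floor of detection. It had 0, 1, 2, 1 and 0 counts in the young untreated libraries and 42, 74, 50, 34 and 46 under LPS. In aged cultures it had 0, 0, 1, 0 and 1 counts untreated and 13, 25, 31, 11 and 11 under LPS. Untreated libraries of both ages were thus at or below the floor of 3 counts per library, and every LPS library was above it. Against this floor the LPS level was at least 19.0-fold higher in young cultures (adjusted p = 3.00e-10, edgeR) and at least 6.70-fold higher in aged cultures (adjusted p = 3.21e-07).

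Mmp12, macrophage elastase, had 0.827, 1.02, 1.15, 0.132 and 0.399 CPM in young untreated cultures 1 to 5 and 7.50, 7.71, 9.64, 4.25 and 5.82 CPM under LPS. These groups were far apart, with a log2 fold change of 3.28 ± 0.50 (SE; adjusted p = 4.40e-06). Aged cultures had 0.129, 0.874, 2.39, 0.384 and 0.798 CPM untreated and 1.75, 4.04, 9.30, 3.71 and 3.47 CPM under LPS. Here untreated culture 3 was above LPS culture 1, yet Mmp12 rose in each of the 5 batches, by 2.25 ± 0.49 on the log2 scale (adjusted p = 4.36e-04). Mmp12 shares exonic sequence with Mmp1b on the other strand, which had at most 3 counts in any library.

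Mmp9, gelatinase B, was low throughout. Young cultures had 0.482, 0.447, 0.422, 0.329 and 0.266 CPM untreated and 3.06, 1.16, 2.27, 2.01 and 0.957 CPM under LPS. Aged cultures had 0.323, 0.269, 0.570, 0.219 and 0.466 CPM untreated and 0.702, 1.57, 2.48, 1.62 and 1.3 CPM under LPS. All LPS cultures were above all untreated ones within each age, although no untreated library held more than 10 counts. Mmp9 rose by 2.23 ± 0.37 (log2; adjusted p = 1.25e-05) in young and by 2.03 ± 0.37 in aged cultures (adjusted p = 7.78e-05).

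Mmp14 is a metalloproteinase anchored in the membrane that cuts collagen at the cell surface. It had 0.345, 0.383, 0.965, 0.659 and 0.665 CPM in young untreated cultures and 4.05, 6.63, 9.44, 7.00 and 5.37 CPM under LPS. Aged cultures had 0.323, 0.202, 0, 0.274 and 0.466 CPM untreated and 2.67, 3.13, 2.69, 2.78 and 3.90 CPM under LPS. Each LPS culture was well above each untreated culture of its age, and the log2 fold changes were 3.41 ± 0.29 in young (adjusted p = 6.70e-10) and 3.57 ± 0.37 in aged cultures (adjusted p = 2.59e-08).

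Timp2, the only metalloproteinase inhibitor tested, did not rise with the protease members. Timp2 fell under LPS in all 5 batches of both ages. Young cultures had 85.4, 75.2, 72.8, 48.1 and 56.7 CPM untreated and 41.8, 38.6, 38.4, 20.4 and 25.4 CPM under LPS. Aged cultures had 37.3, 33.6, 49.3, 33.0 and 39.4 CPM untreated and 16.1, 17.1, 28.0, 16.7 and 15.8 CPM under LPS. The treatment groups did not overlap at either age, and the log2 fold change was -1.04 ± 0.19 in young (adjusted p = 4.56e-05) and -1.04 ± 0.20 in aged cultures (adjusted p = 1.27e-04), a 2.06-fold and a 2.05-fold lower level. Timp1 had 0 to 2 counts in each of the 20 libraries, so no fold is given, and no difference was detectable at this depth. The other 3 genes of the metalloproteinase inhibitor list were also at or below 3 counts in every library, leaving Timp2 as the measured inhibitor of this class.

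Adam8, a leukocyte protease that also binds integrins, had 85.0, 58.4, 70.4, 50.1 and 44.0 CPM in young untreated cultures and 172, 163, 204, 154 and 152 CPM under LPS. Aged cultures had 29.9, 64.9, 105, 61.2 and 46.6 CPM untreated and 95.3, 113, 167, 113 and 134 CPM under LPS. The young groups were apart, while aged untreated culture 3 exceeded aged LPS culture 1. The rise was 1.46 ± 0.23 (log2; adjusted p = 7.54e-06) in young and 1.02 ± 0.23 in aged cultures (adjusted p = 6.40e-04). Its exons overlap those of Gm16201 on the other strand, whose group means were 0.84 to 5.57 CPM.

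Of the 9 tested members Adam17 varied least between cultures of a group. Young cultures had 234, 243, 233, 226 and 217 CPM untreated and 603, 619, 594, 565 and 580 CPM under LPS. Aged cultures had 213, 219, 217, 217 and 218 CPM untreated and 524, 529, 514, 515 and 510 CPM under LPS. The coefficient of variation within a group was 1.01% to 4.23% for Adam17, against 12.5% to 45.2% for Adam8. The log2 rise was 1.36 ± 0.04 in young (adjusted p = 4.03e-18) and 1.26 ± 0.04 in aged cultures (adjusted p = 1.90e-17). Iah1, on the other strand, overlaps its exons and had group means of 27.2 to 30.6 CPM. If strand was not used in counting, reads from the overlap cannot be told apart, which bears most on small differences of Adam17.

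Plaur, the urokinase receptor, changed more than its ligand. It had 24.9, 23.0, 22.8, 16.5 and 19.1 CPM in young untreated cultures and 226, 215, 213, 160 and 182 CPM under LPS. Aged cultures had 12.3, 17.1, 23.3, 16.5 and 19.5 CPM untreated and 100, 119, 165, 112 and 125 CPM under LPS. The lowest LPS culture was far above the highest untreated culture at each age. Plaur rose 9.34-fold in young cultures (log2 3.22 ± 0.15, adjusted p = 2.43e-14) and 6.99-fold in aged cultures (log2 2.81 ± 0.15, adjusted p = 5.31e-13), and the ratio within a batch was 9.06 to 9.69 in young and 6.39 to 8.11 in aged cultures.

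Plau had 70.7, 81.3, 106, 100.4 and 104 CPM in young untreated cultures and 345, 239, 240, 198 and 239 CPM under LPS. Aged cultures had 99.7, 114, 157, 127 and 150 CPM untreated and 191, 195, 347, 218 and 226 CPM under LPS. LPS culture 1 was the highest young culture and LPS culture 3 the highest aged culture, and the treatment groups did not overlap. Plau rose 2.72-fold in young (log2 1.44 ± 0.17, adjusted p = 1.08e-07) and 1.82-fold in aged cultures (log2 0.86 ± 0.17, adjusted p = 1.31e-04).

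**Figure D2:**
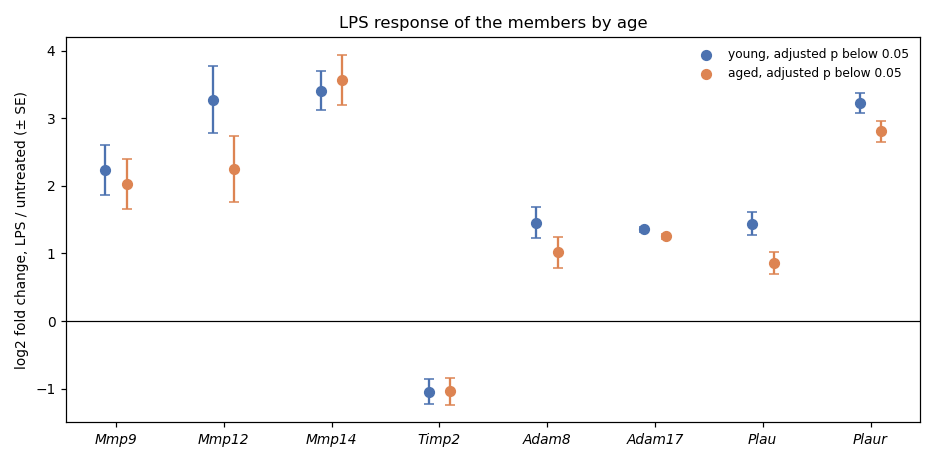
Log2 fold change, LPS over untreated, with its SE (y axis) for 8 tested members in young (blue) and aged (orange) cultures from the edgeR fit, filled points having an adjusted p below 0.05. All 16 points are filled, Timp2 alone lies below 0 (-1.04 at both ages), and Mmp13 is left out because its untreated libraries were at the floor.

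Whether the response itself differed with age was tested as the difference of both fold changes. Of the 9 tested members 0 were called by edgeR, with or without the replicate block, and 0 by DESeq2 without it, while DESeq2 with the block called Adam17 (adjusted p = 0.0327). The share of all genes called was 6.39% in edgeR, 4.12% with a higher and 2.27% with a lower response in aged cultures. Plau alone had an unadjusted p under 0.05, with a difference of -0.58 ± 0.23 (aged minus young, log2; 95% interval -1.04 to -0.12; adjusted p = 0.160). Without replicate 3 this difference was -0.76 (adjusted p = 0.0452), which is a call that rests on leaving out the batch with the highest aged Plau. Leaving out each replicate in turn gave -0.76 to -0.37 for Plau, with an edgeR adjusted p of 0.0452 to 0.443. The difference for Plaur was -0.42 ± 0.21 (interval -0.83 to -0.01; edgeR unadjusted p = 0.0571, adjusted p = 0.276). That for Adam17 was -0.10 ± 0.05 (interval -0.21 to 0.00; adjusted p = 0.292). These 3 responses were smaller in aged cultures in 5 of 5 batches, a pattern that 10.4% of all genes showed. For Timp2 the difference was 0.01 ± 0.28, with an interval of -0.54 to 0.56, and for Mmp14 it was 0.16 ± 0.48, with an interval of -0.77 to 1.10. Mmp12 (-1.02 ± 0.74), Adam8 (-0.44 ± 0.32) and Mmp9 (-0.21 ± 0.57) had intervals that include 0.

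Aged against young BV-2 microglia were then compared without LPS. Timp2 was the only member called by edgeR without the block, with -0.81 ± 0.19 (log2; 1.76-fold lower; adjusted p = 0.00614), where 11.5% of genes were called, 3.71% higher and 7.81% lower. It was lower in aged cultures in 5 of 5 batches, although aged culture 3 (49.3 CPM) lay just above young culture 4 (48.1 CPM). Without replicate 2 the difference was -0.73 (adjusted p = 0.0768). The untreated age groups overlapped for all 9 members and did not overlap for 10.4% of all genes. With library sizes alone 42.2% instead of 32.2% of the called genes were higher in aged cultures.

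Plau was higher in untreated aged than in young cultures of the same batch in 5 of 5 batches, by a ratio of 1.27 to 1.48, with a log2 fold change of 0.48 ± 0.17. Its adjusted p was 0.0643 without the batch in the fit and 0.0350 with it, so with the block 2 members were called. Mmp14 was lower in aged untreated cultures in 5 of 5 batches (log2 -1.27 ± 0.48), with an adjusted p of 0.0886 in edgeR, 0.0834 with the block and 0.0294 in DESeq2. That value rests in part on replicate 3, where aged culture 3 had 0 Mmp14 counts and young culture 3 the highest young value (0.965 CPM). Without replicate 3 the difference was -0.69. Leaving out each replicate in turn gave an edgeR adjusted p of 0.0699 to 0.303. One way in 5 of 5 batches was found for 27.5% of all genes in this comparison, and for 3 of the 9 members. Mmp9 (-0.07 ± 0.47), Mmp12 (0.38 ± 0.63), Adam8 (0.00 ± 0.23), Adam17 (-0.09 ± 0.04) and Plaur (-0.26 ± 0.16) did not pass the test in edgeR, and DESeq2 with the block called Adam17 (adjusted p = 0.0357). Mmp13 was at the floor at both ages.

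Under LPS the members were lower in aged than in young cultures or did not pass the test. Of the 9 tested, 5 were lower (Mmp13, Mmp14, Timp2, Adam17 and Plaur), where 29.0% of genes were called, 14.0% higher and 15.0% lower. With the block 6 were lower, Mmp12 being added. In 5 of 5 batches 7 members were lower (these 6 and Adam8), and 16.4% of all genes were. With library sizes alone 70.1% instead of 48.3% of called genes were higher in aged cultures, and the 5 members stayed called and lower.

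Mmp13 was 2.89-fold lower in aged LPS cultures (log2 -1.53 ± 0.29, adjusted p = 3.34e-04), and Mmp14 was 2.16-fold lower (log2 -1.11 ± 0.23, adjusted p = 9.78e-04). For both, the highest aged LPS culture lay below the lowest young one, at 2.14 against 2.53 CPM for Mmp13 and 3.90 against 4.05 CPM for Mmp14. Adam17 was 1.14-fold lower (log2 -0.19 ± 0.04, adjusted p = 4.09e-04), a small difference whose groups also stood apart, at 529 CPM at most in aged and 565 CPM at least in young cultures. These 3 were the members whose age groups did not overlap under LPS, a rule that 14.8% of all genes met.

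Plaur was 1.60-fold lower (log2 -0.68 ± 0.14, adjusted p = 6.02e-04), with aged culture 3 (165 CPM) above young culture 4 (160 CPM). Timp2 was 1.75-fold lower (log2 -0.80 ± 0.20, adjusted p = 0.00443), with aged culture 3 above young cultures 4 and 5, and without replicate 2 it was -0.71 (adjusted p = 0.0528). Mmp12 was 0.64 ± 0.39 lower on the log2 scale without passing the test (adjusted p = 0.24). With the block its difference was -0.72 (adjusted p = 0.0395), and without replicate 3 it was -0.96 (adjusted p = 0.0292). Leaving out each replicate in turn gave -0.96 to -0.40 for Mmp12, with an edgeR adjusted p of 0.0292 to 0.486. Adam8 (-0.44 ± 0.22, adjusted p = 0.152), Mmp9 (-0.28 ± 0.30, adjusted p = 0.531) and Plau (-0.10 ± 0.16, adjusted p = 0.71) did not pass it, with 95% intervals of -0.88 to 0.00, -0.86 to 0.30 and -0.42 to 0.22.

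**Figure D3:**
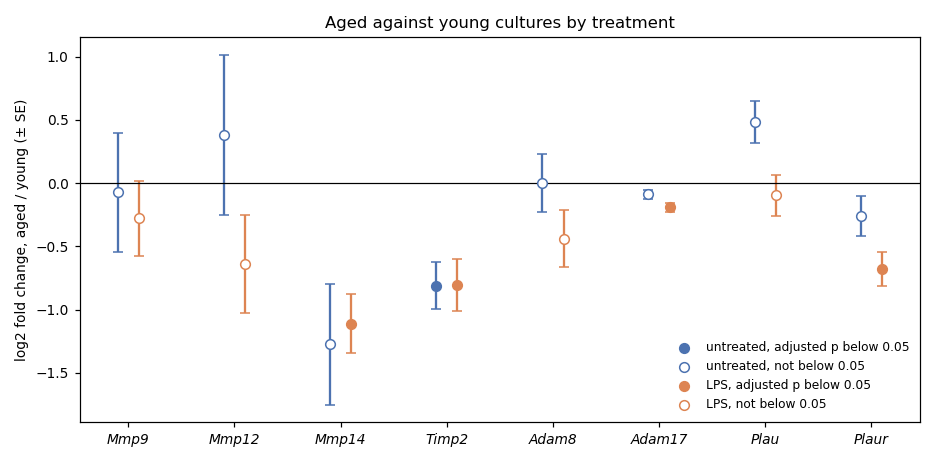
Log2 fold change, aged over young, with its SE (y axis) for 8 tested members in untreated (blue) and LPS-treated (orange) cultures from the edgeR fit, filled points having an adjusted p below 0.05. Timp2 is filled in both and near -0.80, Mmp14, Adam17 and Plaur are filled under LPS, Plau without LPS is the highest point (0.48, open), and Mmp13 is left out because it was at the floor without LPS.

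Members of a group were often highest in the same culture. Aged culture 3 was the highest for 6 of the 8 members above the floor without LPS (Mmp9, Mmp12, Timp2, Adam8, Plau and Plaur) and for 7 of 9 under LPS, Mmp13 joining them. Over all 12799 genes that culture was the highest for 25.4% and 25.1%. Aged culture 1 was the lowest for 5 of 8 and 6 of 9 members, and young culture 4 for 6 of 9 under LPS. Summed microglial markers followed a like order: aged culture 3 had 2256 CPM without LPS and 2576 CPM under LPS, against 1558 to 1725 and 1768 to 2016 CPM in the other aged cultures. Young cultures had 1967 to 2687 CPM and 2216 to 3050 CPM, with culture 1 the highest and culture 4 the lowest in both. The part of these differences in the members' values was not tested.

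Ratios within a library were set side by side for pairs of gene products that act together, without correction for length and as a description with no test. The ratio of Plau to Plaur CPM was 2.83 to 6.10 (median 4.67) in young and 6.67 to 8.08 (median 7.69) in aged untreated cultures. Under LPS it was 1.12 to 1.53 (median 1.24) in young and 1.63 to 2.11 (median 1.91) in aged cultures. Each age range stayed clear of the other with and without LPS, although Plau alone and Plaur alone overlapped between the ages. Single genes whose age groups did not overlap made up 10.4% without LPS and 14.8% under LPS. The share over other gene pairs was not computed. The pair Mmp9 to Timp1 is not given, as Timp1 was at or below the floor in every library. The ratio of Mmp14 to Timp2 was 0.00404 to 0.0137 in young and 0 to 0.0118 in aged untreated cultures. Under LPS it was 0.0967 to 0.343 in young and 0.0958 to 0.248 in aged cultures, so the ages overlapped while the treatments did not.

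**Figure D4:**
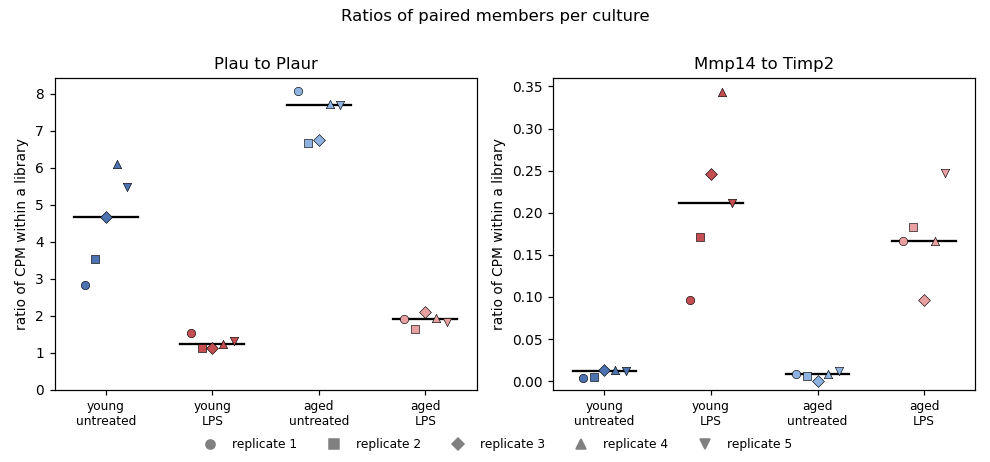
Ratio of CPM within a library (y axes, linear) for Plau to Plaur (left) and Mmp14 to Timp2 (right), each point being 1 culture with its replicate number as the marker and the line giving the median of 5. Aged points of the left panel lie above young points without LPS (6.67 or more against 6.10 or less) and under LPS (1.63 or more against 1.53 or less), and in the right panel the ages overlap.

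Levels between genes were compared as CPM per kilobase of the longest transcript. In young untreated cultures Adam17 (51.6 ± 2.2, SD) and Plau (39.6 ± 6.8) led, followed by Timp2 (18.2 ± 4.0), Adam8 (16.8 ± 4.5) and Plaur (10.6 ± 1.7), with Timp2, Adam8 and Plaur overlapping as neighbours. Mmp14 (0.186), Mmp12 (0.158) and Mmp9 (0.123) lay far lower and overlapped. Under LPS in young cultures Plaur (99.0 ± 13.7) reached the range of Plau (107.7 ± 23.4), which overlapped that of Adam17 (132.5 ± 4.7), and Timp2 (8.88 ± 2.54) fell below Adam8 (46.0 ± 5.7). Mmp14 (2.01), Mmp12 (1.56) and Mmp13 (1.47) overlapped as neighbours there. In aged untreated cultures Plau (55.3 ± 10.3) and Adam17 (48.5 ± 0.5) overlapped at the top, and Plaur was at 8.82 ± 2.00. Aged LPS cultures had Adam17 at 116.0 ± 1.7, Plau at 100.5 ± 27.3, Plaur at 61.8 ± 12.2, Adam8 at 34.0 ± 7.5 and Timp2 at 5.05 ± 1.41. The order of Adam17 and Plau depends on the length used, since over the union of exons Plau was at 39.1 and Adam17 at 32.2 in young untreated cultures.

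Genes of the same pathways were read from lists of 147 related genes, of which 65 were tested. As with the members, genes low without LPS could meet the count filter through their LPS libraries, so rises under LPS were favoured by it. Under LPS 33 of the 65 rose and 16 fell in young cultures (50.8% and 24.6%, against 31.2% and 33.5% of all genes), and 30 rose and 13 fell in aged cultures (46.2% and 20.0%, against 27.5% and 26.9%). Aged cultures had 4 of the 65 higher and 16 lower than young ones without LPS (6.15% and 24.6%, against 3.71% and 7.81% of all genes). Under LPS they had 5 higher and 29 lower (7.69% and 44.6%, against 14.0% and 15.0%).

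Of 17 other matrix metalloproteinases, 3 were tested and 10 had at most 3 counts in every library. Mmp19, which cuts basement membrane proteins, fell by 0.81 ± 0.10 on the log2 scale in young LPS cultures (adjusted p = 2.58e-07) and was lower in aged untreated cultures (-0.41 ± 0.10, adjusted p = 0.00692). In young LPS cultures 2 of the 3 fell (66.7%, against 33.5% of all genes) and 1 did not pass the test. Of 30 other ADAM and ADAMTS genes 7 were tested. In young LPS cultures 4 rose and 3 fell (57.1% and 42.9%, against 31.2% and 33.5% of all genes). Adamts1, a protease of matrix proteoglycans, rose by 2.04 ± 0.15 (adjusted p = 3.81e-11), while Adamts10, another matrix protease, fell by 0.96 ± 0.09 (adjusted p = 4.15e-09) and Adam10, the sheddase most like Adam17, fell by 0.58 ± 0.05 (adjusted p = 3.39e-09).

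In the plasminogen list 3 of 6 tested genes rose and 2 fell in young LPS cultures (50% and 33.3%, against 31.2% and 33.5% of all genes). Anxa2, a cell surface partner of plasminogen, rose by 1.59 ± 0.13 in young (adjusted p = 2.52e-10) and 1.17 ± 0.13 in aged cultures (adjusted p = 6.56e-08). Thbd, thrombomodulin, fell by 3.37 ± 0.15 in young and 2.23 ± 0.14 in aged cultures, and its response differed between the ages (1.14 ± 0.22, aged minus young; adjusted p = 0.00240).

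Partners of the sheddases Adam17 and Adam10 gave 2 rising and 2 falling of 7 tested in young LPS cultures (28.6% each, against 31.2% and 33.5% of all genes). The 2 that rose were Rhbdf2 and Furin, and the 2 that fell were the tetraspanins Tspan14 and Tspan5. Rhbdf2, which brings ADAM17 to the cell surface, had 28.5 to 36.2 CPM in young untreated and 156 to 185 CPM in young LPS cultures, and 26.7 to 30.3 and 116 to 131 CPM in aged ones. Like Adam17 it rose tightly, by 2.36 ± 0.06 (adjusted p = 2.10e-18) and 2.11 ± 0.06 (adjusted p = 1.77e-17), and it was lower in aged LPS cultures (-0.45 ± 0.06, adjusted p = 6.11e-06). Furin, which removes the prodomain of ADAM17, rose by 0.69 ± 0.08 in young (adjusted p = 4.62e-08) and 0.29 ± 0.08 in aged cultures (adjusted p = 0.00306), and these responses differed (-0.40 ± 0.11, adjusted p = 0.0265). Tspan14, a tetraspanin partner of the related Adam10, fell by 1.14 ± 0.06 in young and 0.71 ± 0.06 in aged cultures.

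Of 11 tested ADAM17 substrates 7 rose and 3 fell under LPS at each age (63.6% and 27.3%). Of all genes 31.2% rose and 33.5% fell in young cultures, and 27.5% and 26.9% in aged ones. Tnf rose by 5.07 ± 0.18 in young (adjusted p = 1.43e-16) and 4.74 ± 0.18 in aged cultures (adjusted p = 7.82e-16), and the TNF receptor Tnfrsf1b by 3.24 ± 0.15 and 2.83 ± 0.14. The phagocytic receptors Mertk (-2.39 ± 0.10 and -2.46 ± 0.10) and Trem2 (-0.72 ± 0.15 and -0.67 ± 0.15) fell. Under LPS 8 of the 11 substrates were lower and 1 was higher in aged cultures (72.7% and 9.09%, against 15.0% and 14.0% of all genes), Notch1 among those lower (-1.04 ± 0.13, adjusted p = 5.27e-06).

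Of 10 tested inhibitors of serine proteases 8 rose and 2 did not pass the test in young LPS cultures, and 8 rose and 1 fell in aged ones. The share rising was 80% at each age, against 31.2% of all genes in young and 27.5% in aged cultures. Some of these inhibitors were low without LPS and could meet the count filter through their LPS libraries, which favours rises. The share falling was 0% in young and 10% in aged cultures, against 33.5% and 26.9%. Slpi, a secreted inhibitor of elastase, rose by 3.82 ± 0.25 and 3.84 ± 0.26, and Serpinb9b by 5.14 ± 0.38 and 4.25 ± 0.37. Under LPS 5 of the 10 were lower and 1 was higher in aged cultures, against 15.0% and 14.0% of all genes, and Serpinb9, a granzyme B inhibitor, was among those lower at -1.02 ± 0.09 (log2; adjusted p = 7.52e-08). The higher one was Serpinb1a, an inhibitor of neutrophil elastase, at 1.21 ± 0.35 (adjusted p = 0.0111), and it was also higher in aged cultures without LPS (1.28 ± 0.30, adjusted p = 0.00816). Cathepsins and cystatins gave 5 rising and 3 falling of 16 in young LPS cultures (31.2% and 18.8%, against 31.2% and 33.5% of all genes). The lysosomal protease Lgmn was at -0.75 ± 0.11, the cysteine protease inhibitor Cstb at 0.60 ± 0.08 and the cathepsin Ctso at 0.81 ± 0.22. Of 5 tested matrix substrates 4 rose and 1 fell in young LPS cultures (80% and 20%, against 31.2% and 33.5% of all genes). In aged LPS cultures 2 rose (40%, against 27.5%). Lamc1, a laminin chain, rose by 1.17 ± 0.08 in young and 1.05 ± 0.08 in aged cultures.

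Genes whose profile lay nearest to a member were found by the root mean square difference of log2 CPM over the 20 libraries after centring each gene. Nearest to Adam17 was Igf2bp2 (0.069), to Plaur Itga5 (0.155), to Timp2 Hfe (0.162), to Plau Rai14 (0.222) and to Adam8 Cd44 (0.250). The low members had more distant neighbours: Fam20c for Mmp9 (0.414), Siglece for Mmp14 (0.621), Cd40 for Mmp13 (0.631) and Clec12a for Mmp12 (0.652). Median distances of all tested genes were 0.712 to 2.79 from the same members. These points share libraries and groups, and the distances are a description.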

How the data were processed

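RNA of 20 BV-2 cultures was sequenced as stranded poly(A) libraries, paired-end. The authors aligned reads to GRCm38 with STAR 2.6.1d and counted them per gene with featureCounts 1.5.1, and deposited raw counts per gene. The strand setting of the counting is not given in the sources used here. Counts were tested with edgeR 4.0.16 (quasi-likelihood, R 4.3.3) over all 20 libraries by group, with filterByExpr, TMM scaling and Benjamini-Hochberg adjustment over 12799 genes at 0.05. The study's own tool, DESeq2 (1.42.0 here), was an alternative. CPM used TMM-scaled library sizes, with 0.5 added for log2 values, and the floor was 3 counts per library. Intervals of a fold change are normal 95% intervals from its SE and are narrower than the F-test implies. An interval can thus exclude 0 where the unadjusted p was above 0.05. Replicate numbers are batches in the labels. Deviations from group means of same-numbered libraries correlated on average at 0.22 (aged) and 0.24 (young) between untreated and LPS. Between aged and young cultures they correlated on average at only 0.086 without LPS and 0.040 under LPS, so pairing by batch was weak across the ages. The average over all 30 pairs was 0.12, and 18 of them were above 0.1. On simulated data, edgeR recovered 175 of 200 genes changed 2-fold for LPS in young cultures with 11 false calls (12654 genes), and 174 with 10 false calls for age without LPS (12637 genes). Recovery and false calls were not tested with as many genes changed as were called here. These shares were 64.6% for LPS in young cultures and 11.5% for age without LPS. No 2 replicates of a group agreed within counting error. The members, the lists and the tests were chosen with earlier results of these data known. Related genes could be named when called, at a mean log2 CPM of at least 1 and among the 2 largest rises or 2 largest falls of their list in a comparison, and not all of these are named. Values of 1 gene of the plasminogen list are not reported here. Alternatives were other scalings, filters and fits, the batch as a replicate block, and leaving out each replicate. Promoter sequences are from RefSeq GRCm38.p6, and gene positions and lengths from GENCODE M21 (GRCm38).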

Additional observations from a re-analysis of the deposited data

Results flagged for a closer look

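In 3 of 34 groups of 5 cultures tested over the members, 1 culture lay further from the others than Dixon's 95% limit allows on the log2 CPM scale, and chance gives about 1 in 20. All 3 were aged culture 3. Mmp14 was at 0 CPM in aged untreated culture 3, against 0.202 to 0.466 CPM in the other 4, and this flag depends on the 0.5 added to a count of 0, since the gap was 0.433 of the range in CPM and 0.737 in log2 CPM. Timp2 was at 28.0 CPM in aged LPS culture 3, against 15.8 to 17.1 CPM, and Plau was at 346.8 CPM in the same culture, against 191.0 to 226.4 CPM.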

How the results depend on the processing

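Of the counts of calls under the alternatives, 160 stayed within 1.5 times the main count and 24 did not. Of the values for single members 511 kept direction and side of the threshold, 20 changed sign, 15 passed the threshold newly and 2 lost it. All 9 tested members stayed called for LPS in young and in aged cultures in every alternative but 2. One was the fit of only the aged groups, where Mmp9 did not pass the count filter and 8 were called. The other was the filter on at least 10 counts in every library, which tests 5 (Timp2, Adam8, Adam17, Plau and Plaur) and called 5 and 5, and 3 for age under LPS. For age without LPS 1 member was called in the main fit, 2 with library sizes alone, DESeq2, no filter, the replicate block in edgeR or only the groups compared, and 4 with the replicate block in DESeq2 (Timp2, Mmp14, Adam17 and Plau). Without 1 replicate it was 0 to 2 members, 12 to 22 related genes and 548 to 1193 genes in all, against 2254 genes with the replicate block in DESeq2. Without 1 replicate 2156 to 3563 genes were called for age under LPS. For the difference of responses the replicate block in DESeq2 called 1 member (Adam17, adjusted p = 0.0327) and 1362 genes, and without 1 replicate it was 0 to 1 members and 189 to 697 genes. The lowest counts of genes in all 3 age comparisons came without replicate 2, and the cause was not tested. Except where given with the results, the replicate block changed no other edgeR call of a member.

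Sign changes touched only values that did not pass the test. Without LPS Adam8 was at -0.050 when edgeR took the replicate block, at -0.056 when DESeq2 did, and between -0.23 and 0.31 without 1 replicate. In the same comparison leaving out 1 replicate gave -0.27 to 0.065 for Mmp9 (0.047, 0.065 and 0.026 without replicates 1, 2 and 4) and -0.15 to 0.70 for Mmp12. Under LPS it gave -0.45 to 0.12 for Mmp9 and -0.30 to 0.11 for Plau, both ends above 0 being without replicate 1. The difference of responses ranged from -0.48 to 0.074 for Mmp9, -1.05 to 0.19 for Mmp13, -0.20 to 0.33 for Mmp14 and -0.050 to 0.052 for Timp2, whose value was -0.013 with DESeq2 size factors and -0.017 with DESeq2, with or without the replicate block. Scaling by library sizes alone moved the median log2 fold change of all genes by -0.22 for LPS in young, -0.16 for LPS in aged, 0.02 for age without LPS and 0.08 for age under LPS. With exon unions as the length, 5 members changed rank among the levels in young untreated, 5 in young LPS and 2 in aged LPS cultures. Low counts limit Mmp9, Mmp12, Mmp13 and Mmp14 in untreated cultures, and Timp1 throughout.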
